A study of Mus musculus with 4 samples.

Results

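The regions described here are stretches of chromatin that were listed as open in both wild-type (WT) libraries of mouse lung endothelial cells, in neither Dnmt3a knockout (KO) library, and far from any protein-coding gene. Peaks of the 4 libraries were merged wherever they overlapped by at least 1 bp. A region was kept when both WT lists and neither KO list called it and its centre lay over 50 kb from every protein-coding gene span of the mm10 assembly. This left 712 regions, 20.7% of the 3434 regions with that pattern of calls and a small part of 113056 merged regions in all. They are called WT-only far regions below. Their absence from the KO lists and their presence in the WT lists chose them, so those calls are a description and were not tested.

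Chromatin was assayed by ATAC-seq, in which a transposase cuts and tags accessible DNA, in lung endothelial cells sorted by flow cytometry. There were 2 libraries from Dnmt3a KO mice and 2 from WT mice. The allele or Cre driver behind the knockout, the age and sex of the mice, and whether replicates are separate mice are not given in the sources used here, so p-values measure only the spread between these libraries, which may be technical. Only peak positions and widths were at hand for each library, without scores or read counts, so depth was unknown, and a region absent from a list was not shown to be closed. Fewer cells with a region open and a region less open in each cell cannot be told apart.

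Dnmt3a encodes a de novo DNA methyltransferase, which places methyl groups on CpG sites that carried none. Gene deserts are long intervals with no protein-coding gene. Many hold enhancers, which contact promoters over long distances and often serve developmental regulators at the edge of the desert, so distal accessible regions in endothelium are candidates for such elements.

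Of the 712 regions, 5 overlapped a promoter window of the RefSeq tables for GRCm38.p6 (the mm10 assembly), which runs from 250 bases before to 50 after a gene's start. All 5 windows belonged to long non-coding RNA (lncRNA) genes, and they are shown because they are the stretches of these regions for which sequence was at hand. Gm29922 lies on the minus strand (window chr4:105844294-105844593), and the other 4 on the plus strand: Gm39458 (chr9:120675193-120675492), Gm32515 (chr10:67664379-67664678), 1700061J23Rik (chr11:23151890-23152189) and Gm33253 (chr15:97182762-97183061). Each window is given 5′ to 3′ along its gene, and capitals mark the bases inside the merged WT-only region.
Gm29922: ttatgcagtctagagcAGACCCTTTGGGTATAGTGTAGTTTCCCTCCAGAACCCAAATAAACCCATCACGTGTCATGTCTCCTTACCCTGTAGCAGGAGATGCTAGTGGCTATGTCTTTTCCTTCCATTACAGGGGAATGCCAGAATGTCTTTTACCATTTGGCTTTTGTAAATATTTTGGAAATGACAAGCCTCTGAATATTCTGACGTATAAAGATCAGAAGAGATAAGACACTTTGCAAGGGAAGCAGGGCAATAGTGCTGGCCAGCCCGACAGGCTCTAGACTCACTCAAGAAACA
Gm39458: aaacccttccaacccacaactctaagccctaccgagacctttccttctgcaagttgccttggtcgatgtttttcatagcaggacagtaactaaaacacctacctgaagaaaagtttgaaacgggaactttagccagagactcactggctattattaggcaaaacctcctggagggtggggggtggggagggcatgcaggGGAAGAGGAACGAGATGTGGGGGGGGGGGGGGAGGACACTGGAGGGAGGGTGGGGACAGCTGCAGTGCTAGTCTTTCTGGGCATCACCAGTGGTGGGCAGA
Gm32515: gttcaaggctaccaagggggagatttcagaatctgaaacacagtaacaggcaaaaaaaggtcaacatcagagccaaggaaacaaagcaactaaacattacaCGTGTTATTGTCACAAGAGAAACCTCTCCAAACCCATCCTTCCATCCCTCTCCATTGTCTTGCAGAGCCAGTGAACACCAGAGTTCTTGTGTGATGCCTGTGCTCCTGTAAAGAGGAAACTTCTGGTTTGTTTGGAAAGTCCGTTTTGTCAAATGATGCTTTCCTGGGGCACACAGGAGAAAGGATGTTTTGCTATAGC
1700061J23Rik: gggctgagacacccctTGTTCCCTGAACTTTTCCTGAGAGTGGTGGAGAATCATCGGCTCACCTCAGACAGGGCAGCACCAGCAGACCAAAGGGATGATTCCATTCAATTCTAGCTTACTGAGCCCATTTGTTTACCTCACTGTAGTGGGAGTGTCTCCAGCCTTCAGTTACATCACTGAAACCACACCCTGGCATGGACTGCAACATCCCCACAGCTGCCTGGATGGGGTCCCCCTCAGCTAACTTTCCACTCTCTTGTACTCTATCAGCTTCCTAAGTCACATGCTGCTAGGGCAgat
Gm33253: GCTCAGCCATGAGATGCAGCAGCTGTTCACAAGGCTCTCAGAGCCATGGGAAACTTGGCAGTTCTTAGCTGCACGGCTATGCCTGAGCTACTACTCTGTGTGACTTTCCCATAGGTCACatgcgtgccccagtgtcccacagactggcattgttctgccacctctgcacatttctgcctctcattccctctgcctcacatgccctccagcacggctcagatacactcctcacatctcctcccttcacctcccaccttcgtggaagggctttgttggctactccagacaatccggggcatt

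The WT-only regions covered 284 of the 300 bases at Gm29922, 281 at 1700061J23Rik, 199 at Gm32515, 119 at Gm33253 and 101 at Gm39458. The WT peaks there were 271 and 309 bp wide at Gm29922, 281 and 205 bp at 1700061J23Rik, 304 and 290 bp at Gm32515, 277 and 251 bp at Gm33253, and 244 and 237 bp at Gm39458. The nearest KO peaks lay 229 and 158 bp from the region at Gm39458 and 1765 bp from it in both KO lists at 1700061J23Rik. At the other 3 they lay between 7087 and 46868 bp away. The windows held few CpG sites: 3 at Gm29922, 4 at Gm39458, 2 at Gm32515, 1 at 1700061J23Rik and 5 at Gm33253, beside a median of 4 over 11588 lncRNA windows and 7 over all 32851 windows. Inside the covered bases there were 3, 1, 2, 1 and 1 CpG sites in the same order. Motifs were searched as letters on both strands. The ETS core CCGGAA was in 0 of the 5 windows (7.94% of lncRNA windows) and the AP-1 motif TGANTCA in 0 (9.31%). The motif AGATAA of GATA factors was in 1, at Gm29922 (14.0%), and the motif ACAAT of SOX factors in 2, at Gm32515 and Gm33253 (37.1%). The copies at Gm33253 lie outside the covered bases. Shorter strings were in all 5: GGAA, which is part of the ETS core (96.4% of lncRNA windows), the string CCCTC searched for CTCF (59.3%), at Gm33253 outside the covered bases, and the dinucleotide CG (93.1%). Promoter windows were rare among these regions: 0.702% overlapped one, against 2.04% (16) of far regions called in exactly 1 KO and 1 WT list, 3.35% (6) of far regions with the reverse pattern (both KO, no WT), and 3.17% (297) of far regions called in all 4 lists.

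These other sets served for comparison throughout. Far regions called in exactly 1 KO and 1 WT list (mixed far regions) numbered 784, taken over all 4 possible pairs of a KO and a WT library, and have the same number of calls as the WT-only regions without following genotype. Far regions of the reverse pattern, listed in KO replicates 1 and 2 but not in WT (KO-only far regions), numbered 179, and far regions of all 4 lists 9365. KO replicates 1 and 2 had 85091 and 100879 peaks, and WT replicates 1 and 2 had 101442 and 97627. In every list all 23 pan-endothelial genes checked had an end with a peak no more than 1000 bp away. Of 66 markers of other lung and blood cell types the same held for 32 and 35 in KO libraries, against 36 and 33 in WT libraries. KO replicate 2 stood apart at sex-linked genes: 0 of 5 Y-linked genes had a peak there, against 4 in KO replicate 1 and 3 and 4 in the WT lists. In KO replicate 2, 2 peaks lay within 2500 bp of the higher-coordinate end of Xist, against 0 in each other list. The other end of Xist was not checked.

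Regions listed only in WT lay far from genes more often than regions of most other call patterns. The share over 50 kb from a gene was 20.7% (95% Wilson interval 19.4 to 22.1) for WT-only regions, against 14.1% of the 1267 KO-only regions and 12.4% of the 75395 regions of all 4 lists. Intervals here and below are 95% and cover counting error only, since regions are not replicates of a genotype. The share moved with absence from KO replicate 2. Over the 7 patterns absent from that list it ran between 15.6% (KO replicate 1 alone) and 22.4% (KO replicate 1 with both WT lists), and over the 8 patterns that include it between 12.4% and 17.2%. Pooled, it was 18.2% in the other 6 patterns absent from KO replicate 2 and 12.7% in those that include it. The share also rose where WT replicate 2 joined the lists, as from 17.0% (WT replicate 1 alone) to 20.7%. From KO replicate 2 alone it rose from 13.3% to 15.2%. The exception was both KO lists with WT replicate 1, at 12.7%, and at 12.4% with WT replicate 2 added. Without KO replicate 2, regions of both WT lists absent from KO replicate 1 had 15.8%. Without KO replicate 1, those absent from KO replicate 2 had 21.1%. Leaving out a KO list pools WT-only regions with those of that list and both WT lists. The latter had 13.9% for KO replicate 2 and 22.4% for KO replicate 1. Both values thus follow largely from the shares by pattern and are no separate check. What KO replicate 2 or WT replicate 2 contributed to the high share was not tested further.

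**Figure D1:**
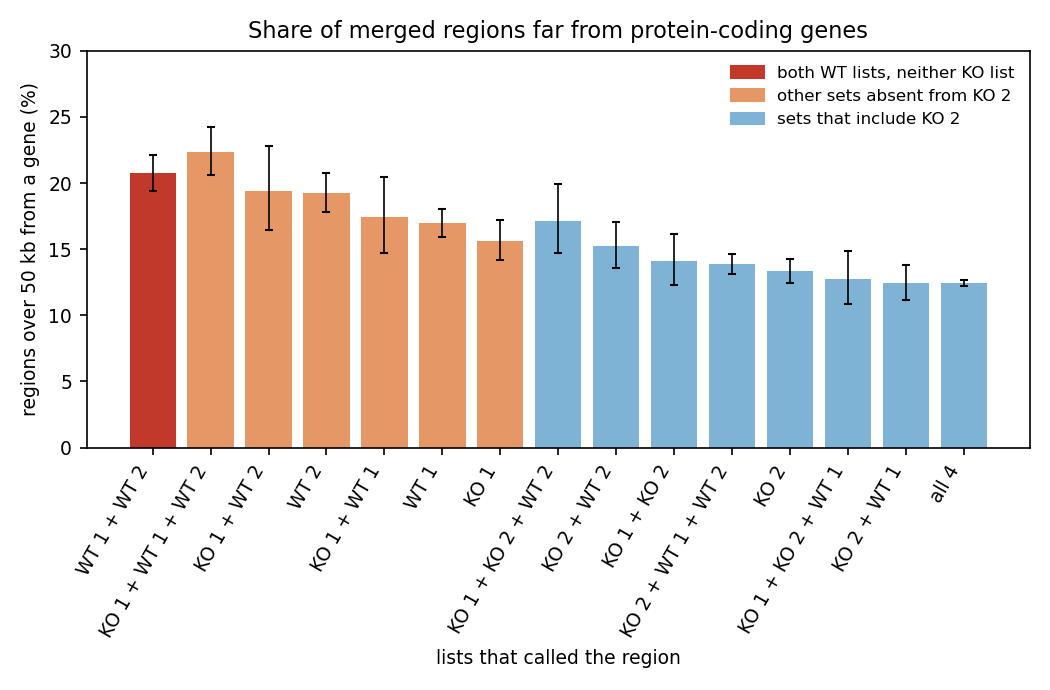
Share of merged regions over 50 kb from a protein-coding gene (y axis, %) for each set of lists that called them (x axis), with 95% Wilson intervals. WT-only regions stand at 20.7%, close to the other sets absent from KO replicate 2 (15.6% to 22.4%) and above the 12.4% of regions of all 4 lists.

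In number, WT-only far regions exceeded KO-only far regions 3.98 times (712 and 179). The ratio was smaller with lists of equal length. When the longer lists were cut to their widest peaks until all 4 were equally long, which also removes narrow peaks, there were 372 and 235, a ratio of 1.58, although the regions of each pattern anywhere in the genome then numbered 1946 and 1952. The totals of the 2 patterns were thus nearly equal in that setting and the far regions were not. The count of WT-only far regions itself was 1189 to 1901 without each library in turn, when 1 list fewer is asked for. Without KO replicate 1 the ratio was 1.33 (1189 and 892), and without each of the other libraries it was between 3.65 and 4.81.

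The peaks themselves were narrow and well placed on each other. Peak width ran between 201 and 668 bp in WT replicate 1 (median 266) and between 201 and 791 bp in WT replicate 2 (median 256), where 201 bp is the narrowest peak of every list. Their median width percentiles within their lists were 14.3 and 12.1, and 3 of the 712 regions had both peaks at or above the median width of their list. WT-only regions nearer to genes had medians of 265 and 247 bp, so distance from genes went with little difference in width. Mixed far regions were about as narrow. The median merged width was 305 bp for WT-only and 296.5 bp for mixed far regions. It was 342 bp for KO-only far regions and 563 bp for far regions of all 4 lists. The WT peaks of a region overlapped over a median of 98.1% of the shorter peak, and their centres lay a median of 26.3 bp apart. No other set is given for comparison on overlap and centres. By the rule no KO peak overlapped these regions, and gaps to KO peaks were not measured for the other sets. For scale, the nearest region of all 4 lists lay at a median of 10.4 kb from mixed far regions, between centres. From far regions of all 4 lists the nearest other one lay at 7.89 kb. The nearest KO peak lay a median of 10.6 kb from a WT-only far region in KO replicate 1 and 9.86 kb in KO replicate 2. A KO peak lay within 500 bp of 48 WT-only far regions (6.74%), while 330 (46.3%) had none within 10 kb in either KO list. For 55 (7.72%) there was none within 100 kb.

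By the lower of their width percentiles, the widest region lay between Gm52720 and Tmem68 (chr4:3413744-3414344), with WT peaks of 523 and 488 bp. It was 135 kb from Tmem68, and a KO peak lay 2268 bp away in replicate 1 and 2352 bp away in replicate 2. Next came a region between Exoc2, a subunit of the exocyst, and Foxq1, a forkhead transcription factor (chr13:31179475-31179944), with WT peaks of 468 and 470 bp whose centres coincided. Here KO peaks were close, at 162 and 856 bp. After these came a region inside the lncRNA gene Gm32649, between Nmur2 and Gria1, an AMPA-type glutamate receptor gene (chr11:56621901-56622585), with WT peaks of 436 and 685 bp and the nearest KO peaks 14564 and 14547 bp away. The other 12 of the first 15 had WT peaks of 375 to 513 bp in replicate 1 and 380 to 473 bp in replicate 2. They lay between the genes Mid1ip1 and H2al1a, Mfsd1 and Iqcj, Cd83 and Jarid2, Khdrbs2 and Prim2, Jcad and Svil, Klf5 and Klf12, Maf and Dynlrb2, Snd1 and Lep, Prickle1 and Adamts20, Zfp352 and Elavl2, Slc35c1 and Chst1, and Gm47655 and Ice1. Of these neighbours, Jcad encodes a junctional protein of endothelial cells, Lep encodes leptin, and Jarid2 a component of Polycomb repressive complexes.

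The regions lay in large deserts. A desert is here the gap between neighbouring protein-coding gene spans that holds the region's centre. It must exceed 100 kb to hold a far region, and 2967 such deserts closed on both sides had a median size of 233 kb. WT-only far regions lay in 498 of them, with a median size of 470 kb. Counted per region, the median desert measured 583 kb (interval of the median 542 to 621, quartiles 290 and 932, range 112 to 4511), against 502 kb (441 to 555) for mixed, 410 kb for KO-only and 473 kb for regions of all 4 lists. As with the share far from genes, the size went with absence from KO replicate 2. The mixed pairs with KO replicate 1 had medians of 629 and 645 kb, above the WT-only regions, and the pairs with KO replicate 2 had 416 and 441 kb. For each KO list the larger value belonged to the pair with WT replicate 2. Far regions of WT replicate 2 alone had 632 kb, against 542 kb for those of WT replicate 1 alone. Deserts over 1 Mb held 166 of the 712 regions (23.3%), against 20.5% of mixed, 17.5% of KO-only and 19.4% of all-4-list regions, and deserts under 200 kb held 92 (12.9%).

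Accessible regions thinned out as deserts grew, and WT-only regions did so somewhat less than regions of all 4 lists. Per Mb of desert over 50 kb from genes there were 1.77 WT-only regions in deserts of 100 to 200 kb, 1.16 in those of 200 to 400 kb, 0.960 in those of 400 to 800 kb, 0.561 in those of 800 to 1600 kb and 0.245 in larger ones. The regions of all 4 lists had 24.5, 18.3, 12.6, 6.14 and 2.51 per Mb over the same classes. Per 100 of those, WT-only regions numbered 7.21, 6.32, 7.61, 9.15 and 9.77, and mixed regions 9.25, 7.84, 8.06, 8.80 and 8.84. The largest class rests on 73 WT-only, 66 mixed and 747 all-4-list regions. Its 9.77 WT-only regions per 100 had an exact binomial interval of 7.58 to 12.4 and the 7.21 of the smallest class one of 5.77 to 8.91, so these intervals overlapped. From the smallest class to the largest, 6.42%, 17.5%, 28.1%, 34.7% and 35.2% of deserts held at least 1 WT-only region.

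**Figure D2:**
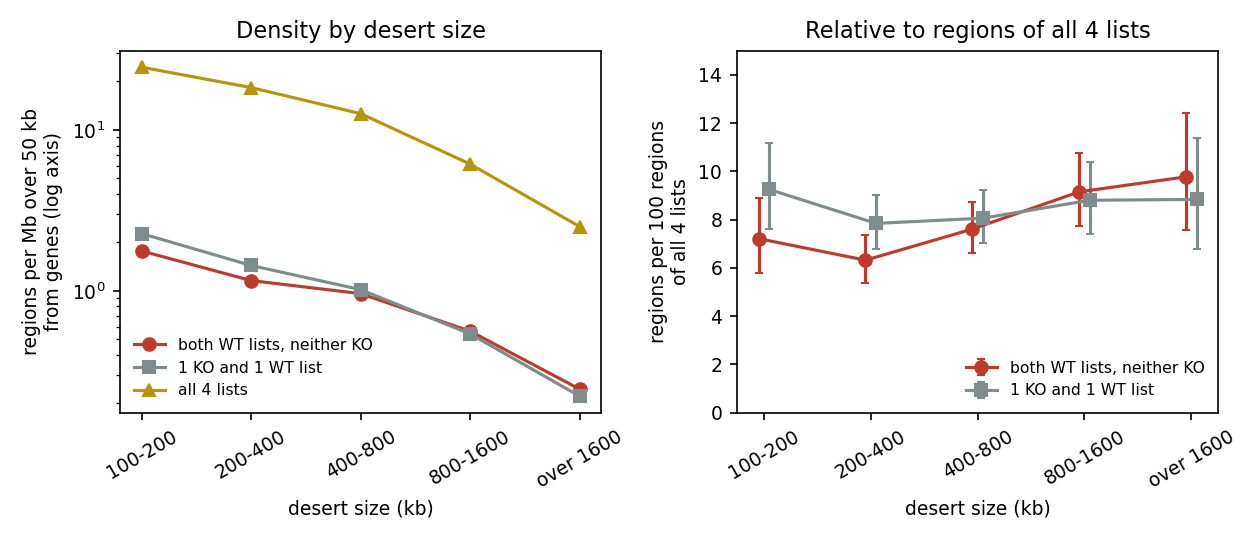
Left, far regions per Mb of desert over 50 kb from genes (log axis) by desert size in kb, for WT-only regions, regions of 1 KO and 1 WT list, and regions of all 4 lists. Right, WT-only regions and regions of 1 KO and 1 WT list per 100 regions of all 4 lists, with exact 95% intervals, where WT-only regions stand at 7.21 in the smallest deserts and 9.77 in the largest.

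The largest desert with such a region, between Celf4, an RNA-binding protein gene, and Pik3c3, a lipid kinase gene, on chromosome 18, measured 4511 kb and held 3, at 250, 663 and 220 kb from the nearer gene. In it, KO lists had 17 and 20 far peaks and WT lists 19 and 22. Without the WT-only regions, which fix part of that difference, WT lists had 16 and 19. The desert between Olfm4 and Pcdh17, a protocadherin gene, on chromosome 14 measured 4420 kb and was nearly empty. It held 1 WT-only region (chr14:84319718-84319983, peaks of 216 and 246 bp, 124 kb from Pcdh17) and 1 other far region. KO lists had 0 and 1 far peaks there against 2 and 1 in WT lists, and 1 and 0 in WT lists without the WT-only region. The desert of 3697 kb between Zeb2, a zinc-finger transcription factor gene, and Acvr2a, an activin receptor gene, on chromosome 2 held 4 WT-only regions among 51 far regions. They formed a pair on each side, with centres 7.85 kb apart near Zeb2 and 23.4 kb apart near Acvr2a, and 3298 kb between the pairs. The deserts between Igfbp7 and Adgrl3 (3611 kb) and between Nudt12 and Efna5 (3590 kb) held 1 each. In the first of these the region was 947 kb from Igfbp7, which encodes a secreted protein made by endothelial cells, and KO peaks lay 1126 and 1088 bp from it.

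Within their deserts the regions lay a median of 31.4% of the desert from the nearer gene (quartiles 19.5 and 41.0). No other set is given for comparison on this measure. Distance to the nearest gene had a median of 126 kb (quartiles 78.2 and 239), against 120 kb for mixed and 118 kb for all-4-list regions, and 40 regions (5.62%) lay over 500 kb from any gene, against 5.61% of mixed and 4.12% of all-4-list regions. The farthest region lay 1583 kb from Cdh11 in the desert between the cadherin genes Cdh8 and Cdh11 (chr8:101049214-101049471), with peaks of 240 and 224 bp, and the nearest KO peaks 1091000 and 975188 bp away. The next 2 lay 1326 kb from Ctnna2, an alpha-catenin gene, and 1233 kb from Mat2b. At the threshold, the regions just inside lay 50.1 kb from Amn1, 50.2 kb from Zhx2 and 50.2 kb from Otogl, and the WT-only regions just outside 49.9 kb from the nearer of Ddhd1 and Bmp4, 49.6 kb from that of Anapc4 and Slc34a2, and 49.4 kb from that of Rnf24 and Gm30679.

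WT-only far regions were seldom near each other. The nearest other one lay at a median of 432 kb (interval 354 to 508, quartiles 94.8 and 1701), against 357 kb among the 784 mixed and 1488 kb among the 179 KO-only far regions. These distances depend on how many regions a set holds. Another lay within 10 kb of 29 (4.07%), against 53 (6.76%) of mixed, and within 50 kb of 117 (16.4%), against 182 (23.2%). With each library left out in turn, and so more regions, the median distance was 85.7 to 167 kb. Of the 712, 363 regions (51.0%) shared a desert with another, against 51.7% of mixed: 349 deserts held 1, 102 held 2, 33 held 3, 10 held 4 and 4 held 5. Of the 498 deserts, 219 also held a mixed far region (44.0% of these and 40.6% of the deserts of mixed regions), 60 held a KO-only one (12.0% of these and 42.0% of the deserts of KO-only regions), and 46 (9.24%) held no far region of all 4 lists.

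**Figure D3:**
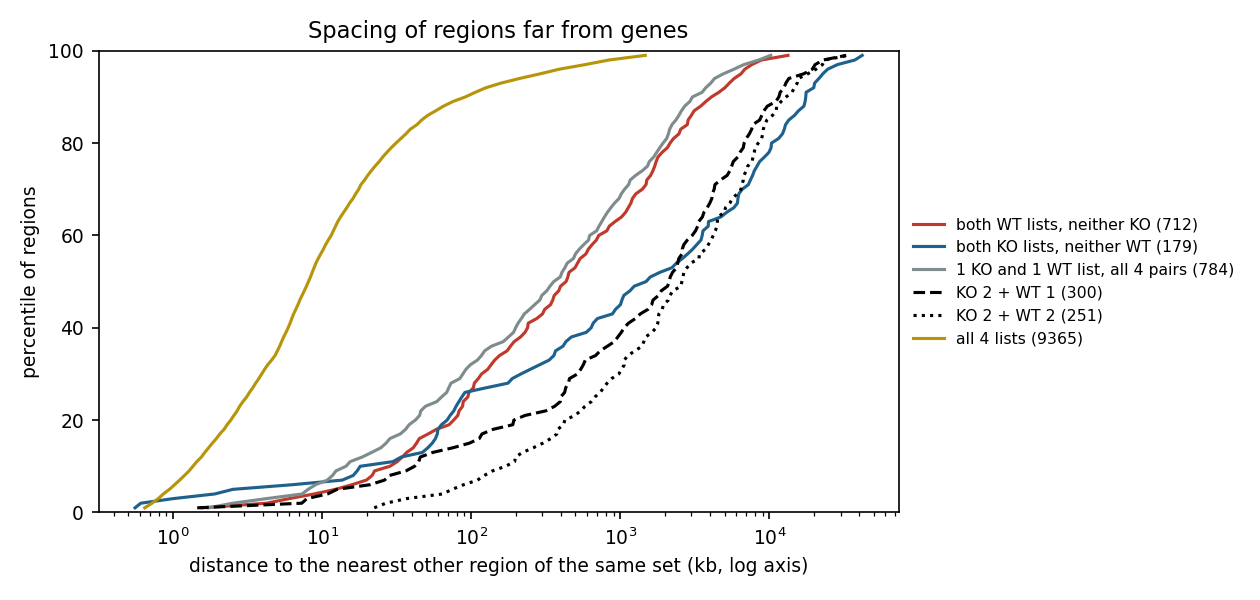
Cumulative distribution of the distance in kb (log axis) between a far region and the nearest other region of its own set, with set sizes in brackets. The WT-only curve (median 432 kb) lies slightly right of the mixed curve (357 kb) and left of the smaller KO-only set (1488 kb).

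The closest pair had centres 660 bp apart, 90.4 and 91.1 kb from Klf4, a transcription factor gene induced by blood flow in endothelium (chr4:55622712-55623041 and chr4:55623391-55623681). Both lay inside the lncRNA gene Gm12506, with peaks of 328 and 259 bp and of 249 and 218 bp, and the nearest KO peaks were 7182 and 6542 bp from them in both KO lists. The next pairs were 1002 bp apart between Khdrbs2 and Prim2, 1287 bp between Hey2 and Hddc2, 1456 bp between Bod1 and Cpeb4, and 2406 bp between Abhd5 and Topaz1. The pair beside Hey2, a Notch target transcription factor gene of arterial endothelium, was isolated: KO peaks lay over 109 kb from both regions. The Bod1 pair was the reverse, with a region of all 4 lists between its members and KO peaks 271 to 715 bp away.

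Other accessible regions were also somewhat farther off. The nearest merged region of any kind lay at a median of 6.95 kb, against 5.71 kb for mixed, 2.52 kb for KO-only and 5.06 kb for all-4-list regions. The nearest region of all 4 lists lay at a median of 12.5 kb, against 10.4, 5.66 and 7.89 kb. It was within 10 kb for 309 regions (43.4%), against 48.7% of mixed and 69.8% of KO-only, and over 100 kb away for 81 (11.4%), against 9.69% and 3.35%. There was no other merged region within 50 kb of 84 regions (11.8%), against 78 (9.95%) of mixed and 5 (2.79%) of KO-only. The mixed pairs had 7.28 and 11.2 kb with KO replicate 2 and 12.3 and 14.4 kb with KO replicate 1, so here too the distance was longer where KO replicate 2 had no peak. For each KO list it was also longer in the pair with WT replicate 2. The immediate neighbour was a region of all 4 lists for 415 regions (58.3%), another WT-only region, near or far from genes, for 31 (4.35%), a mixed one for 27 (3.79%) and a KO-only one for 10 (1.40%).

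Fewer of them lay inside non-coding genes than regions of the compared sets. Of the 712, 136 (19.1%, Wilson 16.4 to 22.2) had their centre inside a non-coding gene span, 129 of them in a lncRNA gene, against 24.1% (21.2 to 27.2) of mixed, 25.1% of KO-only and 24.7% (23.8 to 25.6) of all-4-list regions. The 4 mixed pairs ran between 17.4% and 30.5%, a range that includes the WT-only value. The nearest lncRNA gene lay at a median of 31.9 kb, against 24.7 kb for mixed and 21.8 kb for all-4-list regions. Of the lncRNA genes, 9 held 2 regions each: Gm12506, Gm39256 near Maf, Gm29683 near Nr2f2, A930035F09Rik near Nrp1, 4930571O06Rik, 6030407O03Rik, A930011G23Rik, D5Ertd615e and Gm26562. A microRNA hairpin of the RefSeq tables lay within 50 kb of 13 regions, the nearest being Mir21c at 4.68 kb (between Pard3 and Nrp1), Mir6390 at 7.70 kb (between Ndfip2 and Spry2) and Gm51286 at 12.3 kb.

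By number of regions in the deserts beside it, Bmp2, a bone morphogenetic protein ligand, came first with 8, followed by Maf, a basic leucine zipper transcription factor gene, and Hs3st1, a heparan sulfate sulfotransferase gene, with 7 each, Sox11, a transcription factor gene, with 6, and Klf4, Klf12, Fermt1, Dynlrb2, Khdrbs2, Prim2 and Rab28 with 5 each. These counts were not scaled to desert size or compared with other sets per gene. Far regions of all 4 lists numbered 12 between Fermt1 and Bmp2, 15 between Maf and Dynlrb2 and 17 between Hs3st1 and Rab28. Between Khdrbs2 and Prim2 there were 3. The desert of 606 kb between Fermt1 and Bmp2 held 5 WT-only regions, in a stretch of 260 kb, at 171 to 431 kb from Bmp2. The widest had peaks of 476 and 350 bp (chr2:133121044-133121519). KO lists had 13 and 19 far peaks in this desert and WT lists 24 and 21. Without the WT-only regions, which fix part of that difference, WT lists had 19 and 16, so the groups overlapped. The other 3 regions beside Bmp2 lay on its far side, 456, 478 and 882 kb away.

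The desert of 798 kb between Maf and Dynlrb2 also held 5, at 59.7, 207, 318, 405 and 408 kb from Maf. Outside these regions KO lists had 16 and 16 far peaks there and WT lists 17 and 16. The desert of 749 kb between Khdrbs2, an RNA-binding protein gene, and Prim2, a DNA primase subunit gene, was sparse, and 5 of its 10 far regions were WT-only. KO lists had 4 and 3 far peaks there against 10 and 9 in WT lists, and 5 and 4 in WT lists without the WT-only regions. Its widest (chr1:33243696-33244168, peaks of 397 and 473 bp) had no KO peak within 131 kb. The desert of 1979 kb between Hs3st1 and Rab28 held 5 at 102 to 1256 kb from Hs3st1, with 19 and 19 other far peaks in KO lists and 22 and 21 in WT lists. That of 366 kb between Abhd5 and Topaz1, the smallest of the 10 deserts with 4 regions, had 5 and 8 other far peaks in KO lists and 9 and 6 in WT lists.

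**Figure D4:**
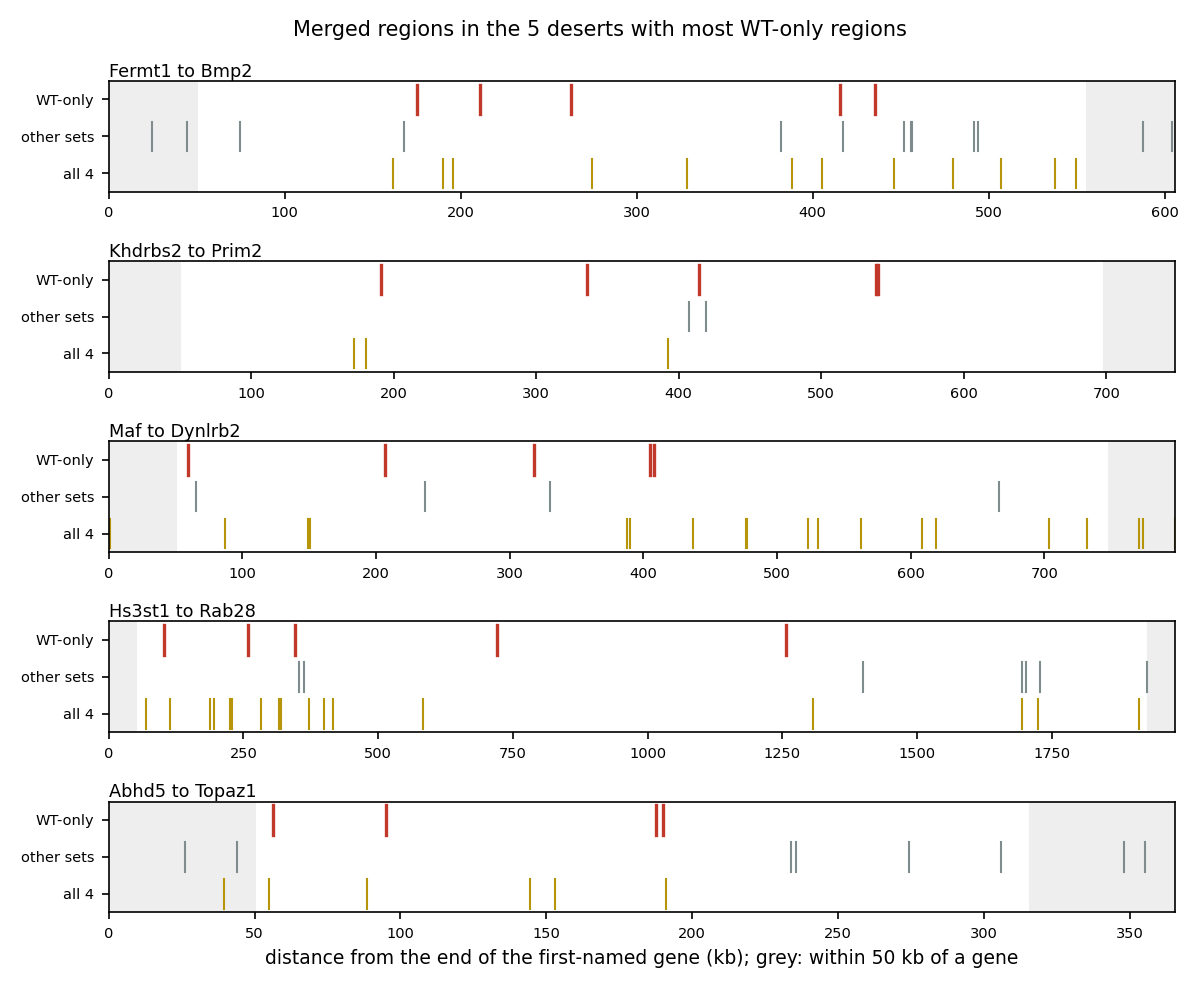
Merged regions in the 4 deserts with 5 WT-only far regions and the smallest of the 10 with 4, drawn to scale as distance in kb from the first-named gene, with grey marking the 50 kb next to genes. Red ticks are WT-only regions (5, 5, 5, 5 and 4), grey ticks other sets and gold ticks regions of all 4 lists.

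Genes of known endothelial roles flanked a modest number of these regions. A region was counted for a list when either gene at the edge of its desert was a member. Endothelial transcription factors flanked 19 regions (2.67%), against 22 (2.81%) of mixed and 3.66% of all-4-list regions, through 9 of the 31 list genes. Klf4 had 5, at 55.7 to 928 kb. Nr2f2, a transcription factor gene of venous identity, had 3 on the same side, at 56.9, 63.9 and 440 kb. The nearest of them (chr7:70294876-70295198, peaks of 323 and 266 bp) had KO peaks at 135 and 141 bp, and the next, with peaks of 405 and 280 bp, at 5565 and 5534 bp. Hey2 had 3, at 346, 347 and 418 kb. Venous genes as a list flanked 5 regions (0.702%) against 2 (0.255%) of mixed and 0.374% of all-4-list regions, with 1 each beside Amigo2 and Vcam1, a leukocyte adhesion gene. Lymphatic genes flanked 1 (0.140%, against 0.255% of mixed and 0.128% of all-4-list regions), beside Prox1, the lymphatic master regulator, at 85.1 kb (peaks of 211 and 244 bp).

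Arterial genes flanked 9 regions (1.26%), against 12 (1.53%) of mixed and 1.602% of all-4-list regions: Nrp1, a co-receptor for VEGF and semaphorins, and Efnb2, the ephrin B2 gene, had 3 each and Cxcl12, a chemokine gene, had 2. The Nrp1 regions lay at 75.7, 119 and 387 kb, and those of Efnb2 at 655, 2429 and 2945 kb. Pan-endothelial genes flanked 3 regions (0.421%), against 8 (1.02%) of mixed and 0.961% of all-4-list regions, with 1 each at Cdh5, the VE-cadherin gene (73.9 kb), Kdr, the main VEGF receptor gene (94.7 kb), and S1pr1, a sphingosine-1-phosphate receptor gene (107 kb). KO peaks lay 752 and 734 bp from the Cdh5 region and 1501 and 1473 bp from the Kdr region. VEGF and angiogenesis genes flanked 6 regions (0.843%), against 13 (1.66%) of mixed and 1.47% of all-4-list regions. Aerocyte genes flanked 6 (0.843%), against 3 (0.383%) of mixed and 0.630% of all-4-list regions, 3 of them at Chst1, a sulfotransferase gene, and 2 at Fibin. General capillary genes flanked 2 (0.281%), at Cd93 and Kit, against 3 (0.383%) of mixed and 0.587% of all-4-list regions.

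BMP and TGF-beta genes flanked 16 regions (2.25%), against 10 (1.28%) of mixed, 4 (2.23%) of KO-only and 1.42% of all-4-list regions. The share was thus close to that of KO-only regions, and 8 of the 16 were those of Bmp2. Id2, an inhibitor of helix-loop-helix transcription factors, had 3, at 525 to 1015 kb, and Tgfbr2, a TGF-beta receptor gene, had 2, at 184 and 282 kb. Developmental transcription factors known as Polycomb targets flanked 38 regions (5.34%), against 48 (6.12%) of mixed, 8 (4.47%) of KO-only and 5.22% of all-4-list regions. Sox11 led them with 6, 3 on each side. The nearest to Sox11 (91.8 kb, peaks of 328 and 331 bp) had KO peaks at 805 and 901 bp. Another, 639 kb away on the other side, had peaks of 201 and 288 bp, and its nearest KO peaks lay 162 and 141 kb away. Sall1, a zinc-finger gene, had 3. Cadherin, protocadherin and synaptic adhesion genes, which often border large deserts, flanked 29 regions (4.07%). Beside this stood 25 (3.19%) of mixed, 7 (3.91%) of KO-only and 3.599% of all-4-list regions. Among these genes Tenm2 had 3 and Pcdh17 and Pcdh18 had 2 each. Of the DNA methylation machinery, Tet2, which oxidises methylated cytosine, flanked 1 region (136 kb, peaks of 275 and 312 bp), which is 0.140% against 0.255% of mixed and 0.0961% of all-4-list regions beside genes of that list.

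Markers of other cell types flanked few. Fibroblast markers flanked 6 regions (0.843%), against 2 (0.255%) of mixed and 0.609% of all-4-list regions, with 3 at Fn1 and 1 each at Dcn and Pdgfra. Epithelial markers flanked 3, all at Epcam, within 107 kb of it and each with a KO peak within 1329 bp, which is 0.421% against 0 of mixed and 0.128% of all-4-list regions. Pan-leukocyte markers flanked 3, at Ptprc (0.421%, against 0.128% of mixed and 0.320% of all-4-list regions), and lymphocyte markers 1, at Cd2 (0.140%, against 0.128% and 0.0320%). Mural and myeloid markers flanked 0. Whether other cells in the sort contributed to these calls was not tested.

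Peaks outside the KO-only and WT-only regions were compared between libraries. The share of peaks over 50 kb from a gene, with KO-only and WT-only regions set aside, was 12.8% and 12.6% for KO, against 13.0% and 13.1% for WT. Every WT value lay above both KO values, and the means differed by -0.328 percentage points (KO 12.7% ± 0.165, WT 13.0% ± 0.0706, SD, n = 2 each; two-sided exact permutation p = 0.3333, which 2 against 2 cannot go below). The groups overlapped with lists at equal length (difference -0.231 points, exact permutation p = 1) and with spans of all genes, where distance is taken from non-coding genes as well (-0.113 points, exact permutation p = 0.667). With those regions included, the shares were 12.9% and 12.6% in KO and 13.3% and 13.4% in WT, a difference of -0.574 points that the choice of regions partly fixes.

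In the 498 deserts, peaks outside the KO-only and WT-only regions numbered 5334 and 6130 in KO lists and 6295 and 6094 in WT lists. The groups overlapped, and the difference of -462.5 peaks was within the spread between replicates (exact permutation p = 0.667). The next shares are of whole lists, with WT-only and KO-only peaks kept in the total, so the choice of regions partly fixes them. Shares without those peaks in the total were not computed. As a share of the whole list the far peaks were 6.27% and 6.08% in KO and 6.21% and 6.24% in WT. On this measure the groups overlapped (difference -0.0512 points, exact permutation p = 1). That difference turned positive without KO replicate 2 (0.673 points), WT replicate 1 (0.221) or WT replicate 2 (0.479), where the deserts were chosen anew from the lists that remained. The peaks covered 2685 and 2656 kb in KO and 2943 and 2917 kb in WT, with mean peak widths of 503 and 433 bp in KO and 467 and 479 bp in WT. Covered length did not overlap between the groups (difference -259 kb, exact permutation p = 0.3333). The deserts were chosen by WT calls and missing KO calls. The peak counts and covered length in them are therefore not independent of that choice. Over all peaks the lists covered 46.6 and 47.8 Mb in KO and 51.1 and 50.5 Mb in WT, so the lower coverage in KO was not confined to these deserts.

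**Figure D5:**
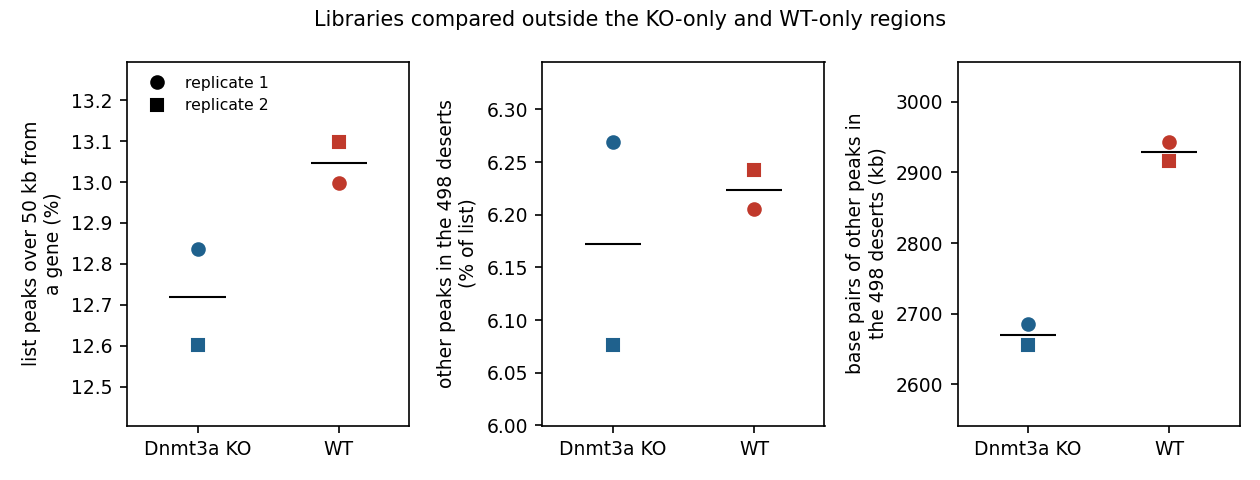
Peaks of each library outside the KO-only and WT-only regions, with KO left and WT right in each panel and group means as lines. Left, the share of these peaks over 50 kb from a gene (%). Middle, those over 50 kb from a gene in the 498 deserts, as a share of the whole list (%). Its total keeps the KO-only and WT-only peaks. Right, the base pairs that the peaks of the middle panel cover (kb). The deserts of the middle and right panels were chosen because they hold WT-only regions. The left and right panels do not overlap between groups and the middle one does, but the groups of the left panel overlap with lists at equal length or spans of all genes. The axes do not start at 0.

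Width was compared at the shared regions that stood next to WT-only far regions. Among the 75395 regions of all 4 lists, 0 passed limma's moderated test on quantile-normalised log2 width after Benjamini-Hochberg adjustment (0% called), and 4546 (6.03%) had an unadjusted p under 0.05, 3.18% narrower and 2.85% wider in KO. The nearest such region on either side of each WT-only far region gave 1295 neighbours. Of these, 0 passed after adjustment and 95 (7.34%) had an unadjusted p under 0.05, 71 narrower and 24 wider in KO, against 7.00% of the 9365 shared regions over 50 kb from genes (411 narrower, 245 wider). Their median widths were 477 and 435 bp in KO and 489 and 497 bp in WT. The median log2 difference, KO minus WT, was -0.02 (interval -0.0318 to -0.00995 over regions), beside 0.01 over all shared regions and -0.00377 over shared regions far from genes. Without KO replicate 2 it was -0.00457, beside -0.00196 over all shared regions. It was -0.09 without normalisation between libraries, when all shared regions had -0.05. The lowest unadjusted p among the neighbours belonged to a region wider in KO, between Serp2 and Lacc1 (chr14:76739743-76740704), with widths of 768 and 666 bp in KO and 303 and 303 bp in WT (log2 difference 1.34, SE 0.0854, limma adjusted p = 0.537). The next was also wider in KO: the region beside Efna5 (chr17:62543784-62544776), with 715 and 834 bp in KO and 277 and 285 bp in WT (log2 difference 1.57, SE 0.148, limma adjusted p = 0.537). It lies next to the WT-only region of the Nudt12 to Efna5 desert named above. The neighbour that followed was narrower in KO. It lay between Ahr and Agr3, with 201 and 201 bp in KO and 361 and 357 bp in WT, where 201 bp is the width floor of the lists.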

How the data were processed

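ATAC-seq peak lists of sorted lung endothelial cells were used for 2 Dnmt3a KO and 2 WT mouse libraries, grouped by the genotype in the labels. Tools named in the submitters' processing notes, without versions, are Bowtie2, Picard and cutadapt, with the build mm10. The peak caller, its threshold and any read shift are not given in the sources used here. Per the file headers, the deposited lists hold chromosome, start, end, width and strand. Width in base pairs, as deposited by the authors and not normalised, is their single measurement, so depth and its precision are unknown.

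Chromosomes 1 to 19, X and Y were used, which left out 92 and 134 peaks in KO and 134 and 124 in WT. Regions were placed by their centre against 21887 protein-coding spans of the RefSeq table (GRCm38.p6), which gives no strand or exons. Distances between regions are between centres, and gaps to KO peaks are between edges. Of 406 genes in 19 lists, 405 matched a symbol; the result of 1 list is not reported here. Sequence features of the regions needed a genome and were not analysed here, except at promoter windows.

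The members and lists were chosen with earlier results of these data known. Named were the 15 regions with the highest lower width percentile, those of the 5 largest deserts, the 5 deserts with most regions, the 5 closest pairs, the 3 farthest, 3 on each side of 50 kb, and up to 3 flanking genes per list. The genes with most regions, the lncRNA genes, microRNAs, promoter windows and shared neighbours were named after their values were seen. Library values were compared by two-sided exact permutation tests, which with 2 against 2 cannot go below p = 0.3333. Widths summed per region were compared with limma 3.58.1 (R 4.3.3), at an adjusted p under 0.05. The procedures were tested on simulated data. The rest was done in Python 3.11.15 with scipy 1.17.1, pandas 2.3.3, numpy 2.4.6 and matplotlib 3.10.9. Alternatives covered overlap, distance, gene set, list length, width, chromosomes and leaving out each library.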

Additional observations from a re-analysis of the deposited data

How the results depend on the processing

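The number of WT-only far regions was 712. It was 447 with genes over 100 kb away, 181 with spans of all genes, 372 with lists at equal length, 310 with every list cut to peaks at or over its median width, and 1189 to 1901 without each replicate in turn, when 1 list fewer is asked for. The far share of 20.7% became 28.0% beyond 25 kb, 13.0% beyond 100 kb, 5.27% with all genes, 19.1% at equal length and 18.2% with wider peaks, and 15.8% to 21.1% without each replicate. The median desert of 583 kb became 402, 746, 251, 515 and 538 kb under these 5 settings and 531 to 606 kb without each replicate. The median distance to the nearest other region was 342 kb beyond 25 kb, 2674 kb with all genes, 1429 kb at equal length, 1483 kb with wider peaks and 85.7 to 167 kb without each replicate, and the share in a shared desert was 21.0%, 28.2% and 29.7% under the last 3 of these settings and 64.8% to 74.9% without each replicate. The ratio of WT-only to KO-only far regions (added after seeing the data) was 6.24 with all genes, 1.58 at equal length and 1.33 to 4.81 without each replicate. The share of other peaks in the deserts turned positive, KO minus WT, without KO replicate 2 (0.673 points), WT replicate 1 (0.221) and WT replicate 2 (0.479), and was -0.258 without KO replicate 1. The median log2 width difference of neighbours was -0.0877 without normalisation, -0.00614 within 100 kb and -0.0317 to -0.00457 without each replicate. Causes were not tested, beyond the number of regions or lists each setting removes by construction. The other differences between libraries kept their direction under every alternative run, but the far shares of KO and WT then overlapped at equal length and with all genes.

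Same-numbered KO and WT libraries did not deviate together (r = -0.0449 over 75395 regions, 2 pairs), so the numbers were not taken to pair them. With the replicate block, 0 neighbours passed limma's test after adjustment and 100 had an unadjusted p under 0.05. Without counts or scores, absence from a list limits every count here.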

Other observations

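Chromosomes differed in how densely these regions lay in desert over 50 kb from genes. Chromosome 10 had 1.14 WT-only far regions per Mb (51 regions), chromosome 13 had 1.14 (51), chromosome 9 had 1.09 (37), chromosome 18 had 1.08 (39), chromosome 8 had 1.07 (51) and chromosome 2 had 1.04 (54). Chromosomes 4, 3, 19 and 15 had 0.565, 0.570, 0.582 and 0.588. Far regions of all 4 lists were also denser on the first 6 of these chromosomes, with 14.5, 14.2, 11.4, 12.7, 11.9 and 14.7 per Mb. On chromosomes 4, 3, 19 and 15 they had 7.89, 8.66, 8.95 and 9.17. Mixed far regions had 1.23, 1.14, 1.20, 0.966, 1.09 and 0.909 per Mb on the first 6 of these, and on chromosomes 17, 6 and 11 WT-only far regions had 0.938, 0.789 and 0.804 and mixed ones 1.11, 1.01 and 0.976. The share of WT-only regions that lay far from genes was highest among autosomes on chromosomes 10 (30.9%), 8 (29.5%) and 13 (27.0%). It was lowest on 19 (10.0%), 11 (13.7%) and 7 (13.9%). The far share of all merged regions was not computed per chromosome, so whether this order is particular to WT-only regions is not known.

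The sex chromosomes held 15 regions on X (0.192 per Mb) and 2 on Y (0.0307 per Mb), against 20 and 3 mixed far regions. The Y region between LOC665918 and Zfy1 had peaks of 277 and 240 bp, with the nearest KO peak 1958 bp away in KO replicate 1 and 3772910 bp away in KO replicate 2, the library with no peak at the Y-linked genes checked. The other lay between Gm20905 and Gm20738, with peaks of 206 and 201 bp and the nearest KO peaks 6155384 and 6155378 bp away. An X region with peaks of 281 and 297 bp lay between Tsx and Zcchc13, 18963 bp from Mir421. On autosomes alone there were 695 WT-only far regions.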
